A study of Homo sapiens with 8 samples.

Results

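ATP-binding cassette (ABC) proteins were followed at the transcript level in Mel1, an established human embryonic stem cell (ESC) line, by RNA sequencing. The members were all symbols of the deposited tables made of ABC, a class letter from A to G and a number, with pseudogenes and antisense genes left out, which gave 45 of 27317 symbols. Cells had received TCDD at 2 nM in DMSO at the ESC stage, or DMSO alone, and the study asked how a dioxin given to ESCs changes genes of ESCs and of the early mesoderm made from them. The D1 libraries were taken before differentiation began, and the D2 libraries 2 days into cardiac differentiation in medium with 5 µM of the GSK3 inhibitor CHIR99021, which turns on Wnt signalling. There were 4 groups (DMSO and TCDD at D1, DMSO and TCDD at D2) with 2 libraries each. All cells were of the same line. Neither the length of the exposure nor the origin of the replicate libraries (1 culture or several) is given in the sources used here. Because of this, p-values reflect only how much these samples vary, and that variation may be technical.

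ABC proteins use ATP to move substrates across membranes. Classes A and G hold the main exporters of cholesterol and phospholipid, classes B and C include the drug and conjugate pumps, class D serves peroxisomes and lysosomes, and classes E and F have no membrane domain and work on the ribosome and in translation. ABCG2 is a plasma membrane pump for drugs, urate and porphyrins that is known from stem cells of several tissues, and the aryl hydrocarbon receptor (AHR), the transcription factor that TCDD binds, has been described as a regulator of it in human cells.

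The AHR and its partner ARNT bind DNA around the letters GCGTG. ABCG2 was the ABC gene that changed with TCDD, and its sequence is printed here at each GCGTG in the windows from 250 bases before to 50 after its 5 RefSeq start sites (GRCh38.p14). The sequences are written 5′ to 3′ on the minus strand, on which the gene lies, with the motif in capitals. CACGC is the same motif on the other strand.
ABCG2 chr4:88159091-88159119: tggcttgtccctGCGTGtcacggcagggt
ABCG2 chr4:88158957-88158985: ggcagtcggggcCACGCctcacccccgcc
ABCG2 chr4:88158750-88158778: cgcagcgcctccCACGCcggccgccgcgc
ABCG2 chr4:88158672-88158700: cgcgcgcgggctGCGTGctgtgcccactc
The gene spans chr4:88090264-88231626 in RefSeq (GRCh38.p14), so all of these motifs lie inside it, seen from its most distant start. In GENCODE v29 (GRCh38) the motif of the first sequence is intronic in 2 of 4 ABCG2 transcripts and outside the other 2. That of the second is exonic in 1, intronic in 2 and outside 1. Those of the other 2 sequences are each exonic in 2 and intronic in 2. Such short letters are common. Of 45 ABC genes, 35 had a promoter in the RefSeq table, 53 promoters in all, and GCGTG on either strand was in 43.4% of these, in 18 genes, against 36.5% of all 35116 promoters of the same 300-base length. The longer form TNGCGTG was in 3.77% of the ABC promoters, those of ABCA2 and ABCB9, and in 5.51% of all promoters. A match describes the letters and shows no binding.

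The libraries held 34873055 to 43770420 counts. Levels are given in CPM, the usual unit of counts relative to the scaled library total. In the main fit the 34 ABC genes with enough counts were tested among 17268 genes with edgeR's quasi-likelihood test. Alternative fits could test other numbers of ABC genes. A gene was called changed at a Benjamini-Hochberg adjusted p under 0.05. The remaining 11 ABC genes, named with their classes, had at most 10 counts in any library. The labelled cell states were checked on marker genes. The summed level of 8 pluripotency genes was 5477 to 5832 CPM at D1 and 4655 to 4986 CPM at D2, with none at 0. These genes did not move alike. With DMSO, mean NANOG was 16.2 CPM at D1 and 25.5 CPM at D2, and mean DPPA4 1298 and 819 CPM. Mean SOX2 at D2 was 240 CPM with DMSO and 361 CPM with TCDD. The sum of 6 primitive streak and mesoderm genes was 2.10 to 2.64 CPM at D1. At D2 it was 780 to 802 CPM with DMSO and 471 to 540 CPM with TCDD. In bulk RNA, fewer cells of a type and less RNA per cell cannot be told apart. Of 8 tested genes of an AHR target list, 7 rose with TCDD at D1 and 5 at D2, or 87.5% and 62.5%. Of all genes, 0.735% were called higher at D1 and 1.4% at D2. The AHR target list was drawn up with earlier results of these data known.

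With DMSO at D1, ABCF1 and ABCE1, of the classes without membrane domains, had the highest levels of the family. Per kilobase of exon (GENCODE v29), ABCF1, a translation initiation factor, had the highest level in DMSO libraries at D1 with 49.3 CPM per kb, and ABCE1, which splits ribosomes after termination, had 45.5 CPM per kb. ABCC1, the glutathione conjugate exporter also called MRP1, followed with 22.1 CPM per kb. The other members without membrane domains, ABCF2 and ABCF3, were lower than ABCC1, at 16.1 and 15.1 CPM per kb. On the same scale ABCA1, the exporter of cholesterol to APOA1, had 4.56 CPM per kb. ABCG1 had 2.37 and ABCG2 had 2.29 CPM per kb, and the libraries of these neighbours in the order overlapped. ABCB1, the P-glycoprotein drug pump, had 0.126 CPM per kb. The lowest of the tested genes was ABCG8, at 0 and 0.0424 CPM per kb. The summed level of the 45 genes was 1219 to 1266 CPM at D1 and 1346 to 1381 CPM at D2.

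**Figure D1:**
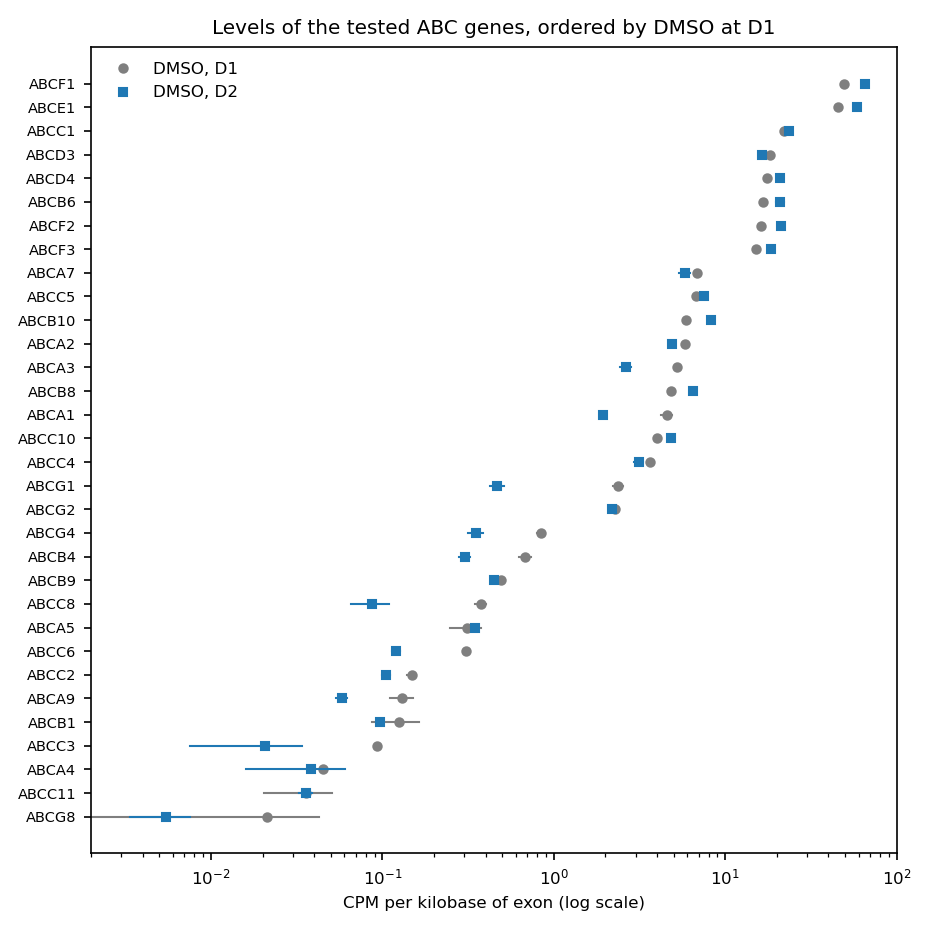
Levels of 32 tested ABC genes in DMSO libraries, in CPM per kilobase of exon on a log axis, ordered by the level at D1. Circles are means of the 2 libraries at D1, squares at D2, and lines run from the lower to the higher library (for ABCG8 past the left edge at D1). ABCF1 and ABCE1 lie highest, and ABCG1 lies well below its D1 level at D2.

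In undifferentiated cells at D1, 1 of 34 ABC genes, ABCG2, rose with TCDD and none fell. DESeq2 also called ABCG2 alone, among the 30 ABC genes to which it gave an adjusted p. In the edgeR fit 3 ABC genes had an unadjusted p under 0.05, beside 1778 of all 17268 genes. Of all genes tested, 0.735% were called higher and 0.405% lower (1.14% in either direction). ABCG2 stood at 11.6 and 10.4 CPM with DMSO and at 18.9 and 17.0 CPM with TCDD. Both TCDD libraries were above both DMSO libraries. ABCG2 rose 1.63-fold (95% interval 1.44 to 1.84), which is 0.71 ± 0.08 on the log2 scale (estimate ± SE, adjusted p = 3.24e-05 in the edgeR fit). By p-value it was number 24 of the 17268 genes, and 35 of the 127 genes called higher had a larger log2 fold change than ABCG2. These values rest on 409 to 808 ABCG2 counts in each D1 library. At D1 the summed level of 4 fibroblast markers was 764 to 802 CPM with DMSO and 779 to 856 CPM with TCDD, and that of 4 trophoblast markers was 9.48 to 10.1 and 10.9 to 11.3 CPM. Their part in the ABCG2 result was not tested.

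**Figure D2:**
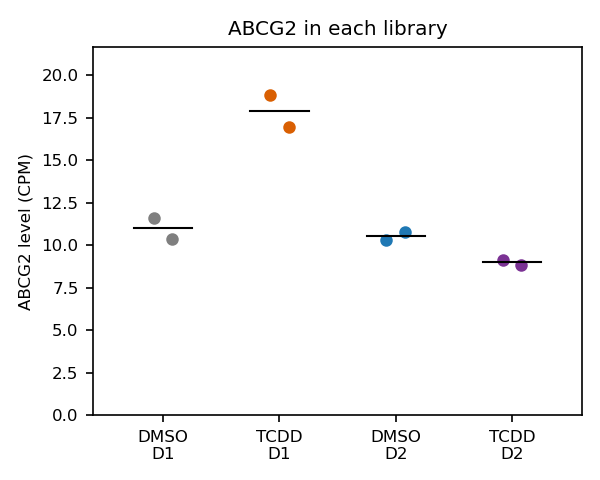
ABCG2 level in CPM in each of the 8 libraries, by group. Points are libraries and lines are means of 2. The TCDD libraries at D1, 18.9 and 17.0 CPM, lie above all others, and the TCDD libraries at D2, 9.12 and 8.86 CPM, below all others.

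The remaining 33 tested ABC genes were not called at D1. The median log2 fold change of the 34 was -0.02, beside 0.00 over all genes. For 27 of the 34 the 95% interval lay within a change of 1.5-fold either way. Among the other pumps of drugs and conjugates, ABCC1 had a log2 fold change of -0.01 (95% interval -0.11 to 0.09) and ABCC4, which exports cyclic nucleotides, one of -0.11 (-0.26 to 0.04). ABCB1, with 17 to 32 counts in D1 libraries, had -0.07 with a wide interval of -0.73 to 0.59, so changes of 1.5-fold either way were not detectable at this depth. ABCC2, the canalicular conjugate pump, had -0.51 (-1.09 to 0.07).

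ABCA1 was the uncalled gene with the smallest p at D1. It stood at 54.8 and 47.8 CPM with DMSO and at 47.0 and 39.8 CPM with TCDD. The higher TCDD library lay just under the lower DMSO library. Its log2 fold change was -0.24 (95% interval -0.40 to -0.08, edgeR adjusted p = 0.191). Without TCDD replicate 1 the value was -0.37 with an edgeR adjusted p of 0.0195, and with no filter on low genes it was -0.24 with an edgeR adjusted p of 0.00443. Over 15 alternative settings the value ran from -0.37 to -0.13 and the adjusted p from 0.00443 to 0.979, with 2 calls. ABCB6, which carries porphyrins, was the third gene with an unadjusted p under 0.05 at D1, at 0.12 (0.01 to 0.24).

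After 2 days of differentiation, no ABC gene was called between TCDD and DMSO. Of all genes, 2.9% were called in either direction at D2, 1.4% higher and 1.5% lower. DESeq2 also called 0 ABC genes, among the 27 to which it gave an adjusted p. In the edgeR fit 2 ABC genes had an unadjusted p under 0.05, beside 2422 of all 17268 genes. ABCG2 stood at 10.3 and 10.8 CPM with DMSO and at 9.12 and 8.86 CPM with TCDD. Here both TCDD libraries were below both DMSO libraries, and the log2 fold change was -0.23 (95% interval -0.42 to -0.04, edgeR adjusted p = 0.24). The other of the 2 was ABCA3, a phospholipid transporter known from lung surfactant, at 0.20 (0.04 to 0.35). The median of the 34 genes was 0.01, beside 0.00 over all genes. For 23 genes the interval lay within 1.5-fold. The primitive streak and mesoderm sum was lower with TCDD at D2 than with DMSO, and its part in these values was not tested. T, MIXL1, EOMES and EVX1 were lower, and SP5 and MESP1 were not. SP5 stood at 193 and 206 CPM with DMSO and 199 and 231 CPM with TCDD. MESP1 was at 1.01 and 1.07 CPM with DMSO and 1.35 and 1.29 CPM with TCDD.

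**Figure D3:**
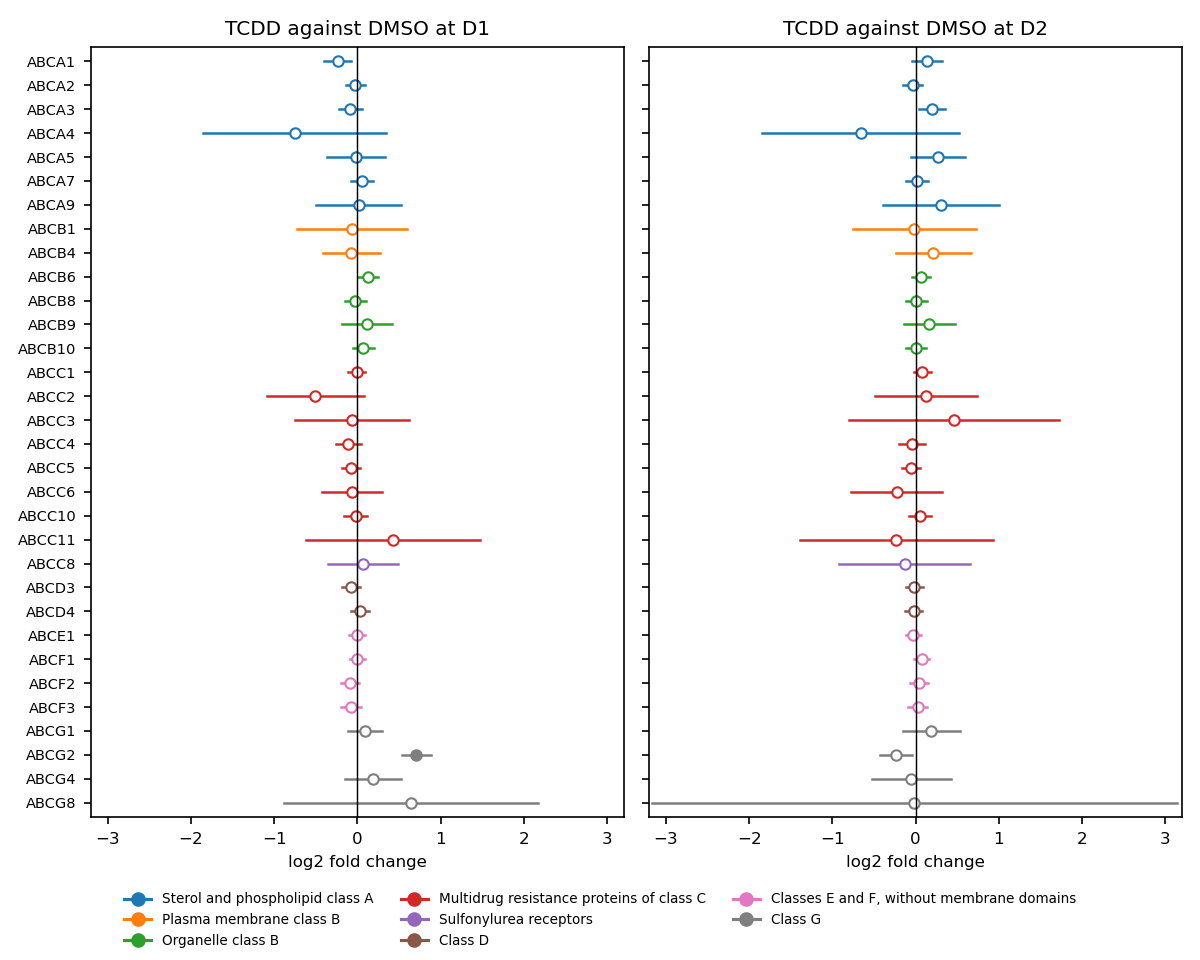
Log2 fold change of TCDD against DMSO for 32 tested ABC genes at D1 (left) and D2 (right). Points are fitted values, lines 95% intervals, colours classes, and filled points are genes called at an adjusted p under 0.05. ABCG2 at D1, at 0.71, is the single filled point.

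The change in the TCDD effect from D1 to D2 was tested directly. It was called for 1 of 34 ABC genes, ABCG2, with a difference of -0.94 ± 0.12 on the log2 scale (95% interval -1.20 to -0.67, edgeR adjusted p = 0.000357). Over all genes, 0.527% were called with a higher and 0.295% with a lower effect at D2 (0.822% in either direction), and by p-value ABCG2 was number 12 of 17268. Of the 51 genes with a lower effect at D2, 11 had a larger drop than ABCG2. The AHR target list had 3 of 8 tested genes called with a lower effect at D2 and none with a higher one. These were CYP1B1 and TIPARP, at -1.41 and -1.55, and LRAT, at -2.20. Over all 8 tested genes of the list the difference ran from -4.27 to -0.05, so its largest drop was not called. In CYP1B1, TIPARP and LRAT the TCDD libraries were still above the DMSO libraries at D2, which was not so for ABCG2. Nor was it so for AHRR of the same list. AHRR stood at 1.42 and 1.68 CPM with DMSO and 3.36 and 3.72 CPM with TCDD at D1. At D2 it overlapped, at 1.28 and 1.10 CPM with DMSO and 1.26 and 1.43 CPM with TCDD. TIPARP, an ADP-ribosyltransferase that restrains the AHR, stood at 5.77 to 6.01 CPM with DMSO and 61.9 to 65.5 CPM with TCDD at D1, and at 8.30 to 9.49 and 32.6 to 33.3 CPM at D2. For ABCA1 the difference was 0.37 (edgeR adjusted p = 0.195). It was called without TCDD replicate 1 of D1, at 0.50 (edgeR adjusted p = 0.0184), and with no filter on low genes, at 0.37 (edgeR adjusted p = 0.004). The TCDD effects at D1 and D2 come from different libraries, while this difference uses the libraries of both.

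From D1 to D2 with DMSO alone, 25 of 34 ABC genes changed, 11 higher and 14 lower, which is 32.4% and 41.2%. Of all genes, 32.5% were called higher and 30.7% lower (63.2% in either direction). The share of rises among the ABC genes was thus near that of all genes. Their median log2 change was -0.14, beside 0.01 over all genes. The falls were the larger changes. They reached 5.10-fold in ABCG1. ABCB10, which was not the largest rise of the family, rose 1.40-fold. Several sterol and phospholipid exporters fell. Of 8 conjugate pumps of class C, 3 fell and 2 rose, and all 4 genes of classes E and F rose. D2 differs from D1 in time, medium and inhibitor together, and these, like any batch, cannot be told apart. Overlap of D1 and D2 libraries is described below gene by gene. The share of all genes without such overlap was not counted. Without composition scaling the median log2 change of all genes was -0.08 with DMSO and -0.11 with TCDD, and no ABC gene called here changed direction.

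**Figure D4:**
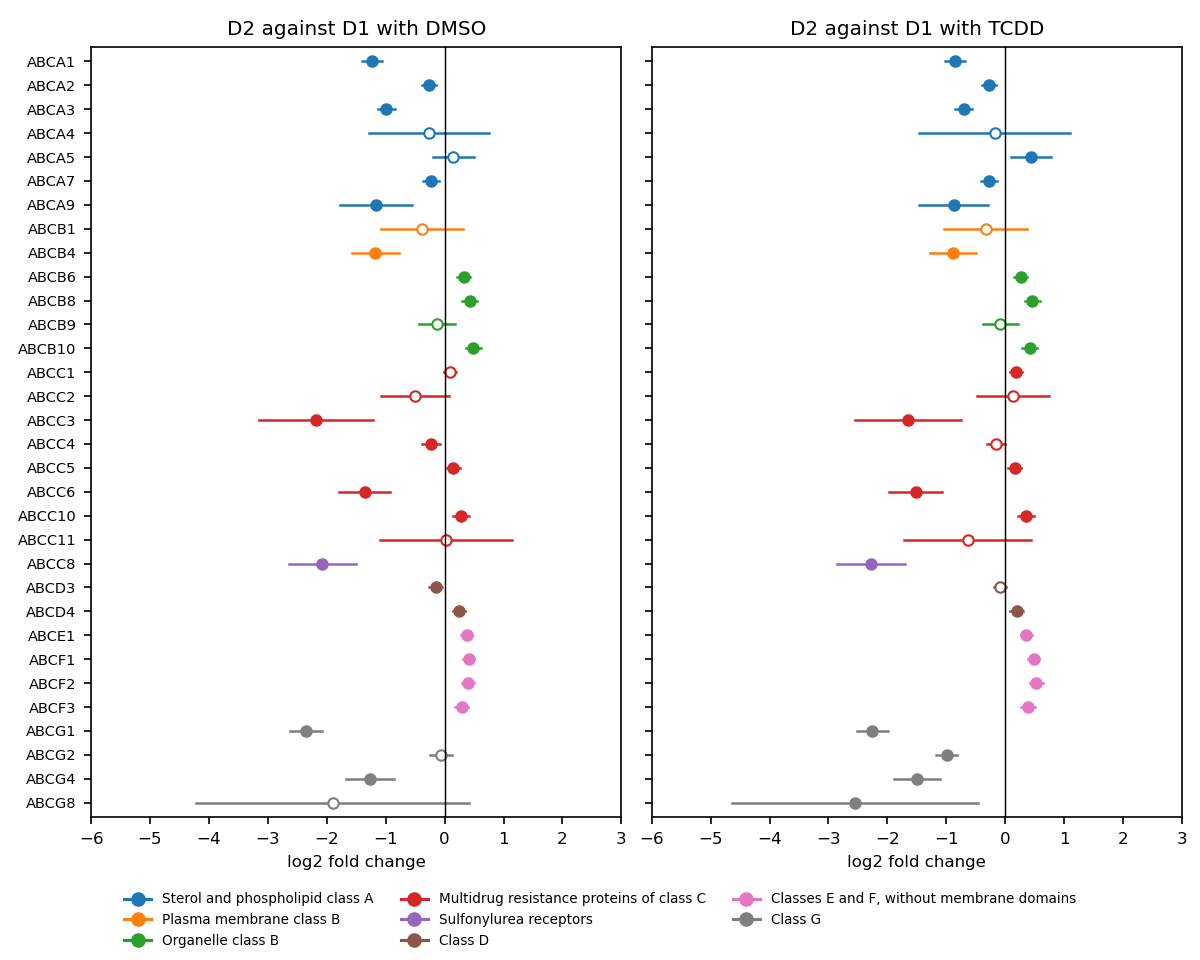
Log2 fold change of D2 against D1 for 32 tested ABC genes with DMSO (left) and TCDD (right). Points are fitted values, lines 95% intervals, colours classes, and filled points are genes called at an adjusted p under 0.05. ABCG1, ABCC3 and ABCC8 lie farthest to the left with DMSO, the 4 genes of classes E and F lie to the right in both, and ABCG2 is filled with TCDD only.

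Among the sterol exporters, ABCG1, which passes cholesterol to high-density lipoprotein, stood at 11.5 and 10.1 CPM with DMSO and 11.4 and 11.6 CPM with TCDD at D1. At D2 it was at 2.32 and 1.92 CPM with DMSO and 2.23 and 2.61 CPM with TCDD. No D2 library came near a D1 library, and ABCG1 fell by 2.35 ± 0.13 on the log2 scale with DMSO (SE, edgeR adjusted p = 1.84e-12). ABCA1 was at 54.8 and 47.8 CPM with DMSO at D1 and at 21.9 and 21.9 CPM at D2, with the TCDD libraries at 47.0 and 39.8 and then 23.2 and 24.8 CPM. ABCA1 fell by 1.23 ± 0.08 with DMSO (edgeR adjusted p = 3.98e-10). ABCG4, a sterol transporter known from the nervous system, was at 3.27 and 3.61 CPM with DMSO and 4.08 and 3.72 CPM with TCDD at D1, and at 1.58 and 1.29 and 1.04 and 1.76 CPM at D2. It fell by 1.26 ± 0.19 with DMSO (edgeR adjusted p = 7.95e-06), with no overlap between D1 and D2.

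Of the 7 tested class A genes, 5 fell (71.4%, beside 30.7% of all genes), none rose (beside 32.5%) and 2 were not called. Besides ABCA1 these were ABCA9, ABCA3, ABCA2, an endosomal lipid transporter, and ABCA7, a phospholipid transporter and risk gene of Alzheimer disease. ABCA9 was at 0.786 and 1.07 CPM with DMSO and 0.933 and 0.936 CPM with TCDD at D1, and at 0.382 and 0.438 and 0.57 and 0.44 CPM at D2. All D2 libraries were below all D1 libraries, and ABCA9 fell by 1.16 ± 0.30 with DMSO (edgeR adjusted p = 0.00179). It shares 184 exonic bases with its antisense gene, whose counts also fell, so their reads may be mixed. ABCA3 was at 32.3 to 35.7 CPM in the 4 libraries of D1 and at 16.5 to 20.5 CPM in those of D2. With DMSO, ABCA3 fell by 0.99, ABCA2 by 0.26 and ABCA7 by 0.24. ABCA7 was no longer called without DMSO replicate 2 of D1 (-0.19, edgeR adjusted p = 0.0548) or without DMSO replicate 1 of D2 (-0.13, edgeR adjusted p = 0.132). ABCA5 had 2.29 to 3.92 CPM over the 8 libraries and was not called, at 0.15. It shares 3.45% of its exonic length with ABCA10 on the same strand. Without DMSO replicate 1 of D1 ABCA5 was called, at 0.48 (edgeR adjusted p = 0.0306). ABCA4, the retinoid transporter of photoreceptors, had 0.11 to 0.464 CPM. ABCA6, ABCA8, ABCA10, ABCA12 and ABCA13 were too low to test.

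Of 16 genes in the list of sterol sensing and lipoprotein partners, 4 rose and 4 fell with DMSO, 25% in each direction, beside 32.5% higher and 30.7% lower over all genes. MYLIP, a target of the sterol-sensing liver X receptors, fell by 1.12 and SREBF2, the activator of cholesterol synthesis, by 0.31. APOE, a lipid acceptor of ABCA1 and ABCG1, rose by 0.48. The receptors NR1H2 and NR1H3 had 0.22, which was called, and 0.08, which was not. With TCDD against DMSO, none of the 16 was called at D1 in the edgeR fit, in which 2 had an unadjusted p under 0.05, and at D2 LCAT alone was, which esterifies cholesterol in lipoproteins and fell by 0.46. The liver X receptors bind a repeat of AGGTCA with 4 bases between, and this strict form on either strand was in none of the 53 ABC promoters and in 0.0199% of all. A looser form, GGTNA and GGTCA with 5 bases between, chosen after the strict one gave no match, was in 0.239% of all promoters and in 1 of 35 ABC genes, ABCA1. It is shown because ABCA1 is the best-known target of these receptors, on the minus strand of GRCh38.p14, where the gene lies, with the match in capitals on its reverse strand.
ABCA1 chr9:104928203-104928231: caggcttTGACCGATAGTAACCtctgcgc
It lies from position -69 to -55 relative to the start site at 104928155.

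Among the conjugate pumps of class C, 3 of 8 fell, 2 rose and 3 were not called. That is 37.5% lower and 25% higher, near the 30.7% and 32.5% of all genes. ABCC6, a liver and kidney protein whose loss causes pseudoxanthoma elasticum, was at 2.00 and 1.83 CPM with DMSO and 1.82 and 1.84 CPM with TCDD at D1, and at 0.792 and 0.706 and 0.641 and 0.633 CPM at D2. The D2 libraries were all below the D1 libraries, and ABCC6 fell by 1.36 ± 0.21 with DMSO (edgeR adjusted p = 9.08e-06). It has near-identical pseudogene copies, and reads may have been split between them. ABCC3, an exporter of conjugates and bile salts, was at 0.583 and 0.61 CPM with DMSO and 0.63 and 0.496 CPM with TCDD at D1. At D2 ABCC3 was at 0.218 and 0.0487 CPM with DMSO, which is 8 and 2 counts, and at 0.19 and 0.165 CPM with TCDD. It fell by 2.18 ± 0.46 (edgeR adjusted p = 0.000329), a size that depended on single libraries, with -3.53 without DMSO replicate 1 of D2 and -1.43 without DMSO replicate 2. ABCC4 fell by 0.23, ABCC10, also called MRP7, rose by 0.28 and ABCC5, a pump of cyclic nucleotides, rose by 0.14. ABCC4 was not called without DMSO replicate 1 of D1 (-0.21, edgeR adjusted p = 0.0604) or DMSO replicate 2 of D2 (-0.14, edgeR adjusted p = 0.193). ABCC5 was not called without DMSO replicate 2 of D1 (0.08, edgeR adjusted p = 0.273) or DMSO replicate 2 of D2 (0.09, edgeR adjusted p = 0.262), by DESeq2 (0.13, adjusted p = 0.0786) or without composition scaling (0.06, edgeR adjusted p = 0.348).

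ABCC1 was not called with DMSO, at 0.10 (95% interval -0.01 to 0.20, edgeR adjusted p = 0.0909). It was just past the threshold when either TCDD library of D1 was left out, with edgeR adjusted p-values of 0.0432 and 0.0431. ABCC2 had 0.468 to 0.966 CPM and ABCC11, the transporter behind earwax type, 0.101 to 0.257 CPM over the 8 libraries, and neither was called. ABCC12 was too low to test. ABCC8, the sulfonylurea receptor that forms ATP-sensitive potassium channels, was at 1.88 and 2.16 CPM with DMSO and 2.36 and 1.84 CPM with TCDD at D1, and at 0.355 and 0.584 and 0.309 and 0.578 CPM at D2. ABCC8 fell by 2.08 ± 0.27 with DMSO (edgeR adjusted p = 1.11e-06), with no overlap between D1 and D2. Its channel partner KCNJ11 fell by 0.50, and KCNJ8, the partner of the sister receptor ABCC9, rose by 0.60. ABCC9 itself was too low to test.

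Plasma membrane class B was low throughout. ABCB4, which moves phosphatidylcholine into bile, was at 3.30 and 2.77 CPM with DMSO and 2.99 and 2.75 CPM with TCDD at D1, and at 1.45 and 1.24 and 1.83 and 1.24 CPM at D2. ABCB4 fell by 1.18 ± 0.19 with DMSO (edgeR adjusted p = 1.72e-05), and its D1 and D2 libraries did not overlap. ABCB1, a close relative of ABCB4 with similar sequence, so that reads may have been split between them, had 0.432 to 0.811 CPM and was not called, at -0.38 (95% interval -1.08 to 0.31). ABCB5 and ABCB11, the bile salt export pump, were too low to test.

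In the class B genes of organelles, 3 of 5 rose and 1 fell, or 60% and 20%, beside 32.5% and 30.7% over all genes. ABCB10, a mitochondrial protein needed for heme synthesis, was at 22.9 and 22.7 CPM with DMSO and 24.0 and 23.9 CPM with TCDD at D1, and at 31.1 and 32.6 and 31.4 and 32.6 CPM at D2. ABCB8, of the mitochondrial inner membrane, was at 24.9 and 24.8 and 25.2 and 23.6 CPM at D1 in the same order of groups, and at 33.0 and 33.8 and 33.6 and 33.7 CPM at D2. ABCB6 was at 51.0 and 50.5 and 56.8 and 53.8 CPM at D1 and at 59.99 and 66.6 and 66.3 and 66.4 CPM at D2. In each of these 3 genes every D2 library was above every D1 library. With DMSO, ABCB10 rose by 0.48 ± 0.06, ABCB8 by 0.43 ± 0.06 and ABCB6 by 0.32 ± 0.06 on the log2 scale, with edgeR adjusted p-values of 7.13e-07, 3.18e-06 and 3.56e-05. ABCB9, a lysosomal peptide transporter, had 3.11 to 4.07 CPM and was not called. It shares 20.7% of its exonic length with OGFOD2 and 15.1% with ARL6IP4 on the other strand.

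Of 17 heme and porphyrin genes, 7 rose and 1 fell with DMSO between D1 and D2, or 41.2% and 5.88%, beside 32.5% and 30.7% over all genes. UROD, an enzyme in the middle of heme synthesis, rose by 0.86, UROS by 0.56 and CPOX by 0.44, while FECH, the last enzyme, which inserts the iron, fell by 0.40. None of the 17 was called between TCDD and DMSO at D1 or D2 in the edgeR fit, in which 2 and 0 of them had an unadjusted p under 0.05.

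Class D and the classes without membrane domains held most of the other rises. ABCD4, which carries vitamin B12 out of lysosomes, rose by 0.24, and ABCD3, a peroxisomal importer of branched fatty acids and bile acid precursors, fell by 0.15. ABCD3 was not called without DMSO replicate 2 of D1 (-0.13, edgeR adjusted p = 0.0923) or DMSO replicate 1 of D2 (-0.13, edgeR adjusted p = 0.104). ABCD2 was too low to test.

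ABCE1 was at 179 and 178 CPM with DMSO and 173 and 183 CPM with TCDD at D1, and at 230 and 233 and 228 and 226 CPM at D2. ABCF1 was at 174 and 169 and 173 and 169 CPM at D1 and at 227 and 228 and 237 and 243 CPM at D2. The D2 libraries of both were above all of their D1 libraries. ABCF2 was at 57.9 and 56.3 and 55.3 and 51.7 CPM at D1 and at 73.8 and 76.2 and 75.9 and 78.5 CPM at D2. ABCF3, whose yeast relative works with GCN1 on the ribosome, was at 40.4 and 38.8 and 38.9 and 35.9 CPM at D1 and at 47.6 and 48.9 and 49.3 and 48.9 CPM at D2. None of the groups of these 4 genes overlapped between D1 and D2. With DMSO, ABCF1 rose by 0.41 ± 0.04, ABCF2 by 0.39 ± 0.05, ABCE1 by 0.38 ± 0.04 and ABCF3 by 0.29 ± 0.06, with edgeR adjusted p-values of 6.38e-08, 9.00e-07, 2.80e-07 and 0.000128. ABCE1 shares 7.09% of its exonic length with ANAPC10 on the other strand. Of 15 listed genes that work with classes C to F, 7 rose and 5 fell with DMSO, or 46.7% and 33.3%, beside 32.5% and 30.7% over all genes. The release factor ETF1, which acts just before ABCE1, rose by 0.26, and GCN1 by 0.25. EIF2AK4, the kinase that GCN1 activates, fell by 0.57. PEX3, needed to place ABCD proteins in the peroxisome, rose by 0.66, and ACSL1, an enzyme of fatty acid activation, fell by 0.77.

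**Figure D5:**
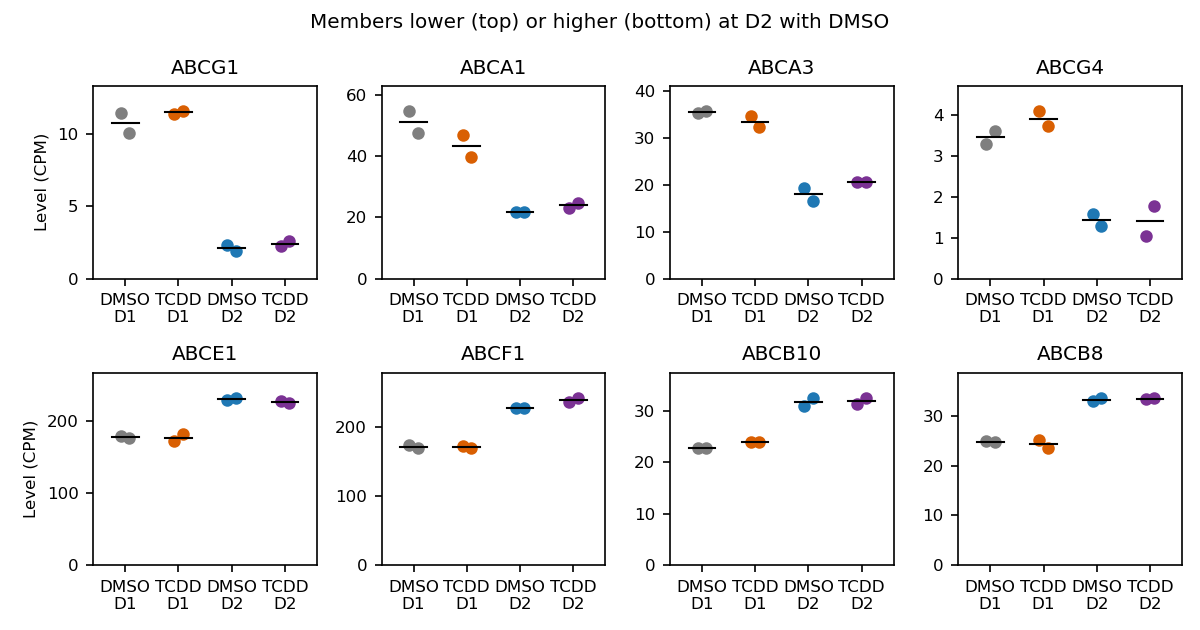
Levels in CPM of 4 ABC genes that fell (top row) and 4 that rose (bottom row) from D1 to D2 with DMSO, in each of the 8 libraries, with the axis from 0. Points are libraries and lines are means of 2. ABCG1 drops from 10.1 to 11.6 CPM at D1 to 1.92 to 2.61 CPM at D2, and ABCE1 moves from 173 to 183 CPM up to 226 to 233 CPM.

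ABCG2 was not called between D1 and D2 with DMSO. It stood at 11.6 and 10.4 CPM at D1 and at 10.3 and 10.8 CPM at D2, so that the groups overlapped, and its log2 change was -0.06 (95% interval -0.25 to 0.13, edgeR adjusted p = 0.569). ABCG8, which with ABCG5 forms the exporter of plant sterols, had 0 to 12 counts in the 8 libraries and was not called with DMSO, with 12 counts at D1 and 3 at D2. Without DMSO replicate 1 of D1, which held no ABCG8 count, it was called, at -2.88 (edgeR adjusted p = 0.00361). ABCG5 was too low to test. Class G as a whole had 2 of 4 tested genes lower and none higher with DMSO. Over all genes 30.7% were lower and 32.5% higher.

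In the TCDD libraries, 27 of 34 ABC genes changed from D1 to D2, 13 higher and 14 lower, which is 38.2% and 41.2%. Of all genes, 33.1% were called higher and 32.2% lower (65.3% in either direction). When library totals alone were used for scaling, 9 ABC genes were higher and 16 lower. ABCG2 was among the falls here, from 18.9 and 17.0 CPM to 9.12 and 8.86 CPM, with a gap between the groups wider than the spread in either. It fell by 1.00 ± 0.09 on the log2 scale (95% interval -1.18 to -0.82, edgeR adjusted p = 2.67e-09). This comparison shares its libraries with those of TCDD against DMSO, and the difference between the D2 to D1 changes with and without TCDD is the same quantity as the change in the TCDD effect, -0.94.

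For the other ABC genes no difference from the change with DMSO was called in the edgeR fit. Unadjusted p was under 0.05 for 3 of the 34 (ABCG2, ABCA1 and ABCA3), beside 1786 of all 17268 genes. Falls with TCDD were 2.28 in ABCC8, 2.25 in ABCG1, 1.65 in ABCC3, 1.52 in ABCC6, 1.5 in ABCG4, 0.89 in ABCB4, 0.87 in ABCA9, 0.86 in ABCA1, 0.71 in ABCA3, 0.27 in ABCA2 and 0.27 in ABCA7. The largest of these falls were those of the channel subunit ABCC8 and the sterol exporter ABCG1. Rises were 0.53 in ABCF2, 0.49 in ABCF1, 0.46 in ABCB8, 0.42 in ABCB10, 0.39 in ABCF3, 0.35 in ABCE1, 0.35 in ABCC10, 0.26 in ABCB6, 0.19 in ABCD4 and 0.16 in ABCC5. ABCC1 and ABCA5 were called with TCDD, at 0.19 and 0.44, and not with DMSO, while ABCC4 and ABCD3 were not called with TCDD, at -0.16 and -0.09. ABCG8 was called lower with TCDD on 19 counts at D1 and 3 at D2, a ratio of 6.28 with a 95% counting interval of 1.85 to 33.1.

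Single libraries decided some of these calls. Without TCDD replicate 2 of D2, ABCA9 was not called (-0.72, edgeR adjusted p = 0.0792). ABCA5 and ABCG8 were not called when any of the 4 TCDD libraries was left out. ABCC5 was lost without TCDD replicate 2 of D1 (0.14, edgeR adjusted p = 0.0511) or TCDD replicate 1 of D2 (0.16, edgeR adjusted p = 0.0526). Without composition scaling ABCA5, ABCC1, ABCC5 and ABCD4 were not called, at 0.33, 0.08, 0.05 and 0.08, and ABCC4 and ABCD3 were, at -0.27 and -0.20. ABCC4 was also gained without TCDD replicate 1 of D2, at -0.23 (edgeR adjusted p = 0.0364). Of the 27 genes, 19 were called in every alternative run, as were 20 of the 25 with DMSO.

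Markers of other cell types changed between D1 and D2 too. The summed level of 4 trophoblast markers was 9.48 to 11.3 CPM at D1 and 0.973 to 1.59 CPM at D2, nearly all of it KRT7, with CGA at 0 in all 8 libraries. That of 4 fibroblast markers was 764 to 856 CPM at D1 and 211 to 270 CPM at D2, from THY1 and COL1A1, of which THY1 is also carried by human ESCs, while COL3A1 was at or near 0. The part of other cells in the ABC changes from D1 to D2 was not tested. The sums of neuroectoderm, definitive endoderm, liver and blood markers were at or under 8.28 CPM in all 8 libraries. That of definitive endoderm was 0.280 to 0.677 CPM at D1 and 6.65 to 8.28 CPM at D2, from FOXA2 and CXCR4, with SOX17 at or near 0. At D2 the fibroblast sum was 211 to 225 CPM with DMSO and 269 to 270 CPM with TCDD.

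Regulators known to act on transporter genes were measured in the same libraries. Of 13 tested, NFE2L2, the oxidative stress factor NRF2, was the only one called between TCDD and DMSO, or 7.69% at each time. Of all genes, 1.14% were called at D1 and 2.9% at D2. In the edgeR fit 6 of the 13 had an unadjusted p under 0.05 at D1 and 2 at D2, with NFE2L2 included. So did 1778 of all 17268 genes at D1 and 2422 at D2. NFE2L2 stood at 42.8 and 40.7 CPM with DMSO and 49.4 and 51.7 CPM with TCDD at D1. At D2 it was at 37.7 and 38.6 CPM with DMSO and 43.8 and 47.2 CPM with TCDD. NFE2L2 rose by 0.28 at D1 (edgeR adjusted p = 0.012) and by 0.25 at D2 (edgeR adjusted p = 0.0132), with TCDD libraries above DMSO libraries at both times. AHR was at 15.3 and 16.0 CPM with DMSO and 11.8 and 13.6 CPM with TCDD at D1, and was not called. From D1 to D2 with DMSO, 6 of the 13 fell and 2 rose, or 46.2% and 15.4%, beside 30.7% lower and 32.5% higher over all genes. None of these gene lists was tested against other genes. NR1I2, the pregnane X receptor that induces drug pumps, fell by 1.03, PPARA, a receptor for fatty acids, by 0.62, KEAP1, which holds NRF2 in check, by 0.49 and AHR by 0.44. The core letters of NRF2 sites, TGACNNNGC on either strand, were in 22.6% of the ABC promoters, in 12 of 35 genes, and in 13.3% of all promoters. ABCG2 is among these genes, with 1 match at its start site at 88159290, exonic in 1 and intronic in 1 of the 4 transcripts and outside the other 2, shown with the match in capitals.
ABCG2 chr4:88159271-88159299: gcagcgcttgTGACTGGGCaacctgtgcg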

How the data were processed

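RNA was sequenced in 8 libraries of Mel1 cells, 2 in each of 4 groups taken from the submitters' sample labels. The authors deposited raw counts per gene for each library. Per the submitters' processing notes, cutadapt 1.9.1, STAR and featureCounts 1.5.1 were used with hg19. No source used here gives the gene annotation, whether strand was used in counting or how reads with several matches were handled, so near copies and overlapping genes are uncertain.

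From these counts, genes were filtered by expression (17268 kept), scaled by TMM (factors 0.958 to 1.04) and fitted over all 8 libraries with edgeR 4.0.16 in R 4.3.3 (limma 3.58.1), by the quasi-likelihood test with robust estimation, a setting chosen after the data were seen. P-values were Benjamini-Hochberg adjusted over all tested genes. The common biological coefficient of variation was 3.86%. Totals ran from 34873055 to 43770420 counts, and chi-square statistics per gene of 3.21 to 6.59 showed that replicates differed by more than sampling noise. Counting intervals are exact and cover counting error only. The script was tested on simulated data.

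ABC members, classes and gene lists were chosen with earlier results of these data known. ABCG2 is named in every comparison and called members in theirs. Library values are given for those called with TCDD and for the 8 largest rises and falls from D1 to D2 with DMSO. Genes not reported by name are left out of these values. Promoters and their coordinates come from RefSeq (GRCh38.p14), exon lengths and overlaps from GENCODE v29, and neither was mixed with hg19 positions. Alternatives were DESeq2 1.42.0, other scaling, no filter, only the compared libraries, a replicate block, a non-robust fit and leaving out each library. The non-robust fit and a crossed block were added after the data were seen. A few genes are counted in the totals but are not reported here by name or in the figures.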

Additional observations from a re-analysis of the deposited data

Results flagged for a closer look

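ABCG2 stands out because the effect of TCDD on it differed between D1 and D2 by the test of the difference itself, at -0.94 on the log2 scale (edgeR adjusted p = 0.000357). It rose with TCDD at D1 by 0.71 and was at -0.23, not called, at D2. Both TCDD libraries lay above both DMSO libraries at D1 and below them at D2. Over the alternatives the difference ran from -1.02 to -0.85, and it was called in each.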

How the results depend on the processing

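ABCG2 kept its direction and its call at D1, at D2 against D1 with TCDD and in the difference under all alternatives run, and stayed uncalled in the other comparisons. Its uncalled change from D1 to D2 with DMSO ran from -0.14 to 0.023 when single libraries were left out, turning from -0.06 to 0.023 without DMSO replicate 1 of D1. With no filter, 1 ABC gene was called lower at D1 and 1 higher in the difference, both ABCA1, against 0 in each; the cause was not tested. When single libraries were left out, these counts ran from 0 to 1, as did that of ABC genes lower with TCDD at D2. From D1 to D2, over all alternatives, 10 to 12 rose and 11 to 14 fell with DMSO, and 9 to 13 rose and 11 to 16 fell with TCDD. Counts over all genes moved more. At D1, 127 higher and 70 lower became 229 and 251 with no filter, 41 were lower with only the compared libraries, and leaving out 1 library gave 66 to 154 and 12 to 156. At D2, 241 and 259 became 428 and 457 with no filter, 157 were lower by DESeq2, and leaving out 1 library gave 99 to 328 and 116 to 325. In the difference, 91 and 51 became 260 and 173, and 30 to 202 and 19 to 67. Depth left the 11 members with at most 10 counts in any library untested.

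The groups share replicate numbers, and whether same-numbered libraries were paired is not given in the sources used here. Deviations of same-numbered libraries correlated at -0.10 to 0.11, over genes. With 2 libraries per group this cannot settle it. With the replicate number as a block, 1, 0, 25, 27 and 1 ABC genes were called in the 5 comparisons, with no call changed. With crossed numbers for D2 against D1 with TCDD, 27 of 27 calls were kept.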

Other observations

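ABC proteins with other names were measured as well. TAP1 and TAP2, the pair that carries peptides to MHC class I, fell from D1 to D2 with DMSO by 0.58 and 0.49 (edgeR adjusted p = 5.90e-07 and 1.32e-06) and with TCDD by 0.44 and 0.35. CFTR, the chloride channel of cystic fibrosis, was not called, at -0.42 with DMSO. None of these 3 was called between TCDD and DMSO in the edgeR fit, in which 0 at D1 and 1 at D2 had an unadjusted p under 0.05.

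Pseudogenes and antisense genes of the family were left out of the counts of members. ABCA11P rose from D1 to D2 by 0.43 with DMSO (edgeR adjusted p = 0.000212) and by 0.33 with TCDD. ABCC6P1, a near copy of ABCC6, fell by 2.92 with DMSO (edgeR adjusted p = 0.000324) and by 2.94 with TCDD, and one DMSO library at D2 held no count of it. ABCA9-AS1 fell by 1.10 and 0.98. ABCA17P was at -0.71, not called, with DMSO and fell by 1.59 with TCDD (edgeR adjusted p = 0.0028).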
